A study of Homo sapiens with 4 samples.

Results

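Expression of 9 genes that mark megakaryocytes and platelets was followed in cells treated with dBET1. They are ITGA2B, ITGB3, GP1BA, GP1BB, GP9, PF4, PPBP, FLI1 and CD9, chosen by name as lineage genes and found through their Ensembl identifiers, and all 9 were among the 64252 genes of the count table. The RNA came from a human acute myeloid leukemia line labelled NB4, with 2 libraries after 24 h in 8 μM dBET1 and 2 libraries after 24 h in DMSO, the solvent. dBET1 is a PROTAC, a molecule that joins a ligand of the BET proteins, readers of acetylated histones, to one that binds CRBN, part of an E3 ubiquitin ligase, so that the BET proteins are marked for degradation. All 4 libraries came from a single cell line, and the labels do not say whether the libraries of a group came from separate cultures, so the p-values below measure the spread between these libraries, which may be technical.

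Megakaryocytes are the bone marrow cells that shed platelets. They arise from a progenitor shared with red cells, and both lineages depend on the transcription factors GATA1 and TAL1. NFE2 is needed for platelet formation, while FLI1, an ETS factor, directs the progenitor toward megakaryocytes. The platelet surface carries the fibrinogen receptor made of ITGA2B and ITGB3, and the receptor for von Willebrand factor made of GP1BA, GP1BB, GP9 and GP5. PF4 and PPBP are chemokines stored in the alpha granules, and CD9 is a tetraspanin abundant on platelets.

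The libraries held 28019956 to 34685645 counts each. The neutrophil granule genes that define promyelocytes were at or near 0 in cells labelled as a promyelocytic line. Their 8 markers summed to 17 and 15 counts under DMSO and to 55 and 28 under dBET1, and ELANE and CTSG had 0 counts in every library. The 10 erythroid markers summed to 5881 and 7161 CPM with DMSO and to 3563 and 3468 CPM with dBET1. CPM is the count scaled to a common TMM-normalized library size. In the edgeR test described below, 9 of the 10 fell (90.0%, against 27.6% of all tested genes). Of the 10, 7 lay in the highest 2 deciles of abundance, where 54.1% and 62.1% of all tested genes were lower. Of 9 monocyte and macrophage markers 4 were tested, of which 3 rose and LYZ fell, against 28.0% and 27.6% of all tested genes. Among those that rose, CSF1R and MRC1 entered the test through the dBET1 libraries alone. CD14 had 18 and 14 counts under DMSO against 27 and 48 under dBET1. The sum of the 9 moved from 19.1 and 18.2 CPM to 13.7 and 14.4 CPM. Most of it was LYZ, at 18.4 and 17.4 CPM with DMSO and 10.8 and 11.3 CPM with dBET1. The 6 endothelial markers summed to 0.674 and 1.35 CPM with DMSO and to 4.06 and 4.45 CPM with dBET1, and CDH5 and EMCN had 0 counts throughout. The 8 T and B cell markers summed to 37.2 and 42.7 CPM with DMSO and to 15.8 and 15.3 CPM with dBET1. The part of such shifts in the results below was not tested, and in bulk RNA fewer cells of a type cannot be told apart from less RNA per cell. The line is called as labelled in what follows.

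The 9 genes fell into a detected and an undetected set. ITGA2B, GP1BA, GP1BB and, at a few counts, ITGB3 were measured in every library. GP9, PF4, PPBP, FLI1 and CD9 had at most 3 counts in every library, and none of these 5 passed the count filter of edgeR. Of 19550 protein-coding genes in the count table, 25.9% had at most 3 counts in every library. Of the 4 tested genes, ITGA2B and GP1BA rose, GP1BB fell and ITGB3 did not pass the test, by the quasi-likelihood test of edgeR (adjusted p under 0.05, Benjamini-Hochberg over 17971 genes). By the same rule 28.0% of all tested genes were higher and 27.6% were lower, 55.6% in all, so that calls in either direction were common in this comparison. All 4 genes had groups that did not overlap in CPM, which was also true of 41.9% of tested genes in the higher and 37.4% in the lower direction.

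**Figure D1:**
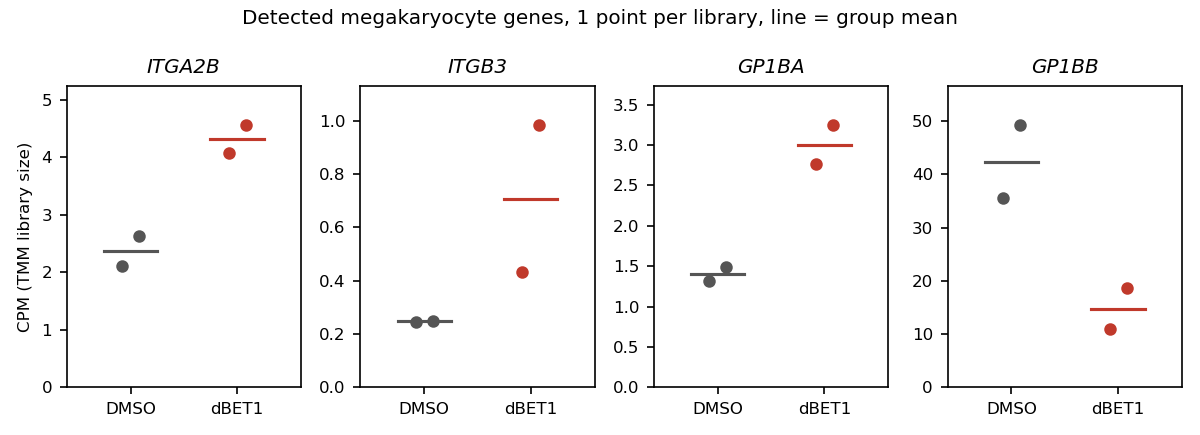
CPM of the 4 detected genes in each library (y axis, linear from 0, a scale of its own in each panel), with DMSO in grey and dBET1 in red, 1 point per library and a line at the group mean. The dBET1 points lie above the DMSO points for ITGA2B, ITGB3 and GP1BA and below them for GP1BB, and the dBET1 points of ITGB3 lie far apart, at 0.433 and 0.983 CPM.

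ITGA2B, the alpha subunit of the fibrinogen receptor and the classical early megakaryocyte marker known as CD41, had 69 and 74 counts under DMSO against 122 and 139 under dBET1. Both treated libraries were above both controls, and each count is small beside the library totals. The level rose from 2.37 ± 0.367 to 4.31 ± 0.345 CPM (SD, n = 2 each), a log2 fold change of 0.86 (SE 0.252, edgeR adjusted p = 0.0209), which is short of the fold change limit of 1 used in the study's methods. DESeq2 gave an adjusted p of 0.0900 for a log2 fold change of 0.83. The edgeR call was also lost without DMSO replicate 1 (edgeR adjusted p = 0.0591), without dBET1 replicate 1 (edgeR adjusted p = 0.0519) and without dBET1 replicate 2 (edgeR adjusted p = 0.112). ITGA2B lies on chromosome 17 of hg38, from 44372180 to 44389649 on the reverse strand, and no other annotated gene overlaps it. Among the 1797 tested genes in the same decile of abundance, 35.5% were higher and 15.0% were lower.

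The 250 bases before the ITGA2B start are shown because this gene was detected here while other lineage genes were not. They run over chr17:44389650-44389899 on the reverse strand and were taken from RefSeq on GRCh38.p14. The capitals mark a word of the GATA factors, TGATAG, which begins 102 bases before the start.
ITGA2B promoter: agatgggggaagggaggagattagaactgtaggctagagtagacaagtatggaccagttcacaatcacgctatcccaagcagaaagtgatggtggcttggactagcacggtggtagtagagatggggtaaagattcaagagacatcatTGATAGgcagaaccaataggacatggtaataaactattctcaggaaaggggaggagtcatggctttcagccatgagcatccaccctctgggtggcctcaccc
The words searched on both strands were AGATAA and TGATAA for GATA factors, found in 14.6% of 35116 promoter windows of this length, AGATAG and TGATAG, found in 10.3%, and AGGAAG and CGGAAG for ETS factors, found in 40.8%. AGATAG and TGATAG were added after the sequences had been seen. The ITGA2B window held no ETS word. A matched word is a description of the sequence and does not show binding.

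ITGB3, the beta subunit that pairs with ITGA2B, had 8 and 7 counts under DMSO against 13 and 30 under dBET1. The groups did not overlap, but the gap between the treated libraries was wider than that between the lower treated library and the controls. The log2 fold change was 1.51 (SE 0.575, edgeR adjusted p = 0.0558), and the gene entered the test only through the dBET1 libraries, since its DMSO levels of 0.245 and 0.249 CPM lay under the filter's cutoff of 0.339 CPM. Without dBET1 replicate 2 the log2 fold change was 0.79 with an adjusted p of 0.536. With total counts as the only scaling the adjusted p was 0.0335. ITGB3 lies on chromosome 17 from 47253827 to 47313743 on the forward strand. Of the genes that overlap it, a coding gene on the same strand shares 2266 of its 6829 exon bases and had 0 counts in every library, and the 3 on the opposite strand share 0 of them. In CPM the 2 subunits of the fibrinogen receptor both stood higher in every treated library than in any control, although ITGA2B passed the test and ITGB3 did not.

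GP1BA, the subunit of the von Willebrand factor receptor that binds the ligand, had 43 and 42 counts under DMSO against 83 and 99 under dBET1. The control libraries were nearly equal and both treated libraries lay well above them. The level rose from 1.41 ± 0.125 to 3.004 ± 0.338 CPM (SD, n = 2 each), a log2 fold change of 1.10 (SE 0.281, edgeR adjusted p = 0.0120), past the limit of 1. With both thresholds, 16.9% of all tested genes were higher. DESeq2 gave an adjusted p of 0.0716, and edgeR without dBET1 replicate 2 gave 0.0885. Of the 1797 tested genes in its decile of abundance, 36.0% were higher and 8.90% were lower. GP1BA lies on chromosome 17 from 4932277 to 4935023 on the forward strand. CHRNE, a subunit of the muscle acetylcholine receptor, overlaps it on the opposite strand and shares 97 of its 2514 exon bases. CHRNE had 0 and 3 counts under DMSO against 22 and 24 under dBET1, and since no source states that strand was used in counting, reads in the shared bases cannot be assigned to either gene with certainty.

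GP1BB, the subunit that is disulfide-linked to GP1BA, had by far the highest counts of the 9 genes and moved the other way. It had 1160 and 1382 counts under DMSO against 330 and 567 under dBET1. Every treated library was below every control. The level fell from 42.4 ± 9.64 to 14.8 ± 5.36 CPM (SD, n = 2 each), a log2 fold change of -1.52 (SE 0.248, edgeR adjusted p = 0.00148). By both thresholds 8.54% of all tested genes were lower, and in its decile of abundance 34.2% were lower and 25.7% higher at an adjusted p under 0.05. The call held with DESeq2 and in each of the fits that left out 1 library, where the log2 fold change was -1.96 to -1.19.

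The counts of GP1BB cannot be separated from those of SEPTIN5, a gene for a filament-forming GTPase that ends within GP1BB on the same strand. GP1BB lies on chromosome 22 from 19723539 to 19724771, and 412 of its 959 exon bases are also exon of SEPTIN5. A further annotated coding gene, which runs from SEPTIN5 through GP1BB and covers all 959 bases, was not used here. SEPTIN5 had 6743 and 6494 counts under DMSO against 2208 and 2340 under dBET1, a log2 fold change of -1.54 (SE 0.0856, edgeR adjusted p = 1.33e-05). As a share of SEPTIN5 counts, GP1BB stood at 17.2% and 21.3% under DMSO and at 14.9% and 24.2% under dBET1. The log2 of this ratio was -2.39 ± 0.217 with DMSO and -2.39 ± 0.493 with dBET1 (SD, n = 2 in each group), a difference of -0.0080, which is smaller than the spread within either group. The fall of GP1BB and that of SEPTIN5 were the same size within the replicate error. When the counts of both genes were summed, an alternative chosen after seeing the data, the log2 fold change was -1.54 (SE 0.101). How many of the GP1BB reads came from transcripts that begin at SEPTIN5 was not tested.

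**Figure D2:**
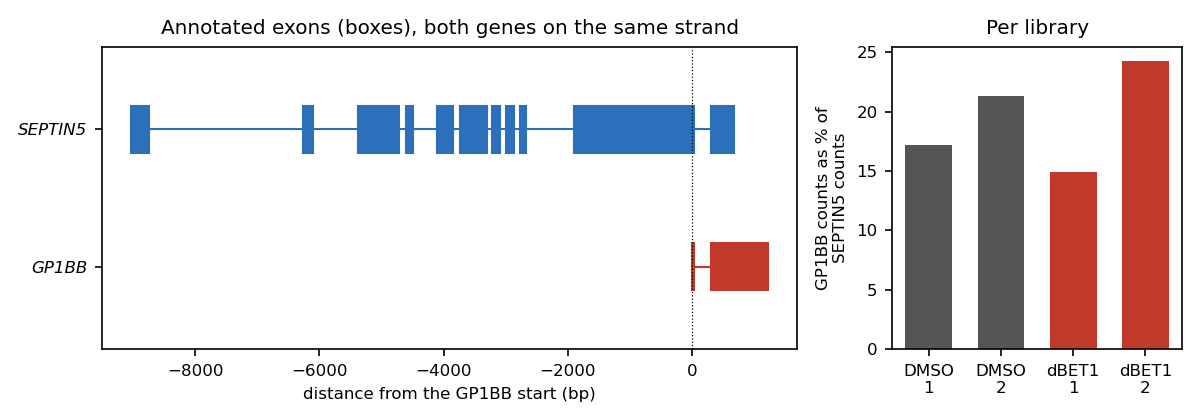
Left, annotated exons of SEPTIN5 and GP1BB drawn to scale by distance from the GP1BB start (x axis, bp), with 412 exon bases in both genes. Right, GP1BB counts as a percentage of SEPTIN5 counts in each library, with DMSO bars at 17.2% and 21.3% and dBET1 bars at 14.9% and 24.2%, so that the dBET1 bars enclose the DMSO bars.

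The bases before the GP1BB start lie within an untranslated region annotated for SEPTIN5, so a short stretch around the GATA word is shown. It covers chr22:19723396-19723421 on the forward strand of GRCh38.p14 (RefSeq), and the capitals mark CTATCT, which is AGATAG read on the other strand, beginning 133 bases before the start.
GP1BB site: cgatagtgtgCTATCTgccgctgcag
This window of 250 bases also held the ETS word CGGAAG, 172 bases before the start, and it held neither AGATAA nor TGATAA. One of the words added later was in the windows of ITGA2B, which rose, of GP1BB, which fell, and of CD9, which was not detected, 3 of the 5 genes that had a window. These words were chosen after the sequences had been seen, so the count carries no weight. They were found in 10.3% of all promoter windows, a share per window, while CD9 had several windows.

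GP9, the small subunit without which the von Willebrand factor receptor is poorly displayed at the surface, had 0 and 0 counts under DMSO against 2 and 0 under dBET1. A count of 0 allows up to 3 counts, which is 0.0919 to 0.107 CPM in these libraries, for counting error alone. GP5, the remaining subunit, had 3 and 0 counts under DMSO against 15 and 10 under dBET1. Its adjusted p was 0.0259, but 0.15 with DESeq2 and 0.130 without DMSO replicate 2, and it entered the test through the dBET1 libraries alone. The subunit genes of the receptor were therefore far from equal in level. On a scale of CPM per kilobase of annotated exon (RPKM), the DMSO level was 44.2 ± 10.05 for GP1BB and 0.559 ± 0.0497 for GP1BA (SD, n = 2), while GP5, at 3 counts or fewer, lay at the floor, with the GP1BB value subject to the shared exons described above.

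The GP9 window is shown as that of an undetected partner of detected genes. It covers chr3:129060529-129060778 on the forward strand of GRCh38.p14 (RefSeq), and the capitals mark the ETS words AGGAAG and CGGAAG, both read on the other strand and overlapping each other, 44 and 40 bases before the start.
GP9 promoter: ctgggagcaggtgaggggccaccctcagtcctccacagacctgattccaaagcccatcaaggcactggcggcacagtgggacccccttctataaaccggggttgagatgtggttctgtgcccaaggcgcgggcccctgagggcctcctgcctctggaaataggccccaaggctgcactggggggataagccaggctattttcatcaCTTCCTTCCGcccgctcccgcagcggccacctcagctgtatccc
No GATA word of either pair was found in it. GP9 lies on chromosome 3 from 129060779 to 129062406 on the forward strand, with no other annotated gene over it.

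PF4 and PPBP, the platelet chemokines CXCL4 and CXCL7, had 0 counts in all 4 libraries. They are neighbours on chromosome 4, with PF4 from 73980811 to 73982027 and PPBP from 73986439 to 73988190, both on the reverse strand, and an annotated gene that runs through both was not used here. PF4V1, a close copy of PF4, also had 0 counts in all 4 libraries. No increase of either chemokine was detectable at this depth, where 3 counts in a library are 0.107 CPM or less. The PPBP window is shown because it holds both kinds of word. It covers chr4:73988191-73988440 on the reverse strand of GRCh38.p14 (RefSeq). The capitals mark AGATAA, 217 bases before the start and overlapping an AGGAAG at 221 bases, and AGGAAG on the other strand at 79 and 61 bases.
PPBP promoter: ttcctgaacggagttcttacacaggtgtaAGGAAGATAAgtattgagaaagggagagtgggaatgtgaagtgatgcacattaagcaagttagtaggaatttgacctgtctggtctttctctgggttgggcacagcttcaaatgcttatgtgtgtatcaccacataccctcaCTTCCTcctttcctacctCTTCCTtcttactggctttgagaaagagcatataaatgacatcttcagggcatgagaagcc
PPBP, whose window held words of both kinds, was at 0 counts in both groups.

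FLI1, the ETS factor, had 0 counts in all 4 libraries on chromosome 11 (128686535 to 128813267, forward strand). The 2 annotated genes that overlap it on the opposite strand, among them SENCR, also had 0 counts throughout. Its close relative ERG had 0 and 0 counts under DMSO against 2 and 0 under dBET1, and ETS1, which lies in the same family, had 0 counts in every library. ETS2, a further member, was detected at 1180 and 1073 counts under DMSO against 738 and 744 under dBET1. ETS1, ETS2 and ERG were named with FLI1 after their values were seen. CD9, the tetraspanin on chromosome 12 (6199715 to 6238271, forward strand), had 0 and 2 counts under DMSO against 0 and 0 under dBET1. Promoter windows were found for 5 of the 9 genes. ITGB3, GP1BA, PF4 and FLI1 had none, and CD9 had 4, of which 3 hold untranslated bases. Of the CD9 windows, one held the GATA word TGATAG, at 200 bases before its start, and the ETS word AGGAAG, at 247 bases. Another held the GATA word AGATAG, at 178 bases. They are not shown, since none of them ends at the annotated start of the gene.

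Per kilobase of exon, the order of the 9 genes with DMSO was GP1BB, GP1BA, ITGA2B and ITGB3, followed by the 5 at or near 0. The means were 44.2 ± 10.05, 0.559 ± 0.0497, 0.417 ± 0.0644 and 0.0362 ± 0.000406 RPKM (SD, n = 2). With dBET1 the order was the same, at 15.4 ± 5.59, 1.20 ± 0.134, 0.757 ± 0.0606 and 0.104 ± 0.0569 RPKM (SD, n = 2). GP1BA and ITGA2B were neighbours whose means with DMSO differed by little more than the sum of their SDs, so their order there is not firm. Among the 95 other tested genes of the lineage, the profile nearest to ITGA2B was that of HPS1, a gene of dense granule biogenesis, with a root mean square distance of 0.055 in centred log2 CPM over the 4 libraries. For GP1BB it was VAMP8, a vesicle fusion protein of platelet secretion, at a distance of 0.293. SEPTIN5 was not among the genes compared. For GP1BA it was ITGA2, at 0 counts in both DMSO libraries, at a distance of 0.061, and for ITGB3 it was PECAM1, at 0.152. Over 2 groups of 2 libraries such a profile holds little beyond the fold change, so nearness does not show shared regulation.

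**Figure D3:**
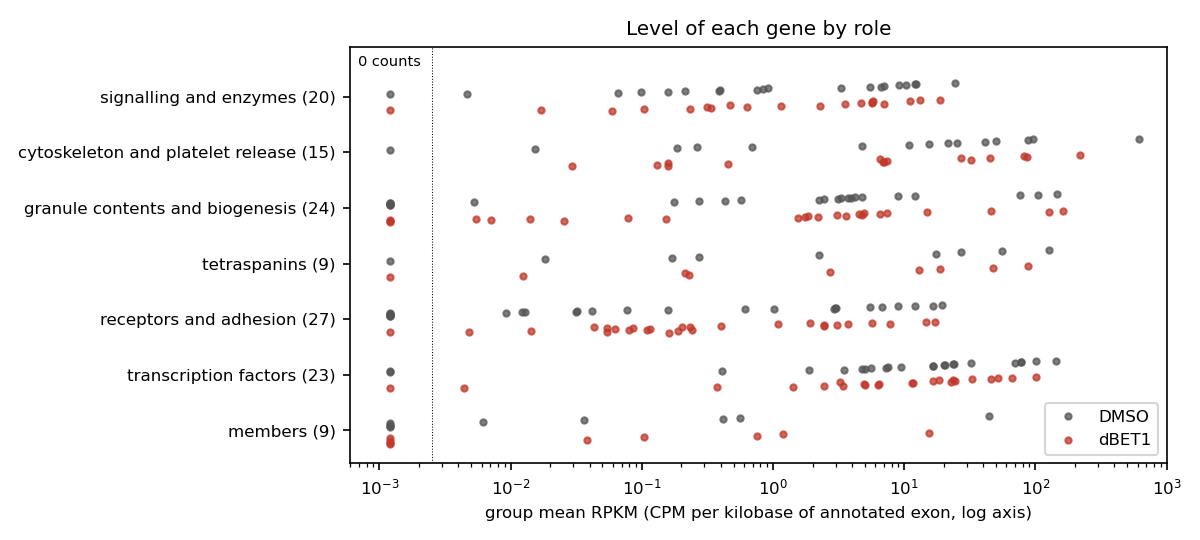
Group mean RPKM of the 9 genes and of 118 other megakaryocyte and platelet genes by role (x axis, log scale, genes with 0 counts placed left of the dotted line), with DMSO in grey and dBET1 in red. Most transcription factors stand above 1 RPKM, while all of the 9 genes except GP1BB stand near or below it.

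The 9 genes were set against 118 other genes of the lineage, of which 95 were tested. At an adjusted p under 0.05, 20 of them were higher (21.1%, against 28.0% of all tested genes) and 38 were lower (40.0%, against 27.6%). Their median log2 fold change was -0.20, and that of all tested genes was 0.048. With total counts as the only scaling the list's median was 0.0063 and that of all tested genes was 0.257, a shift of the whole scale. In that setting 31 genes of the list were higher and 26 lower, beside 6703 higher and 3573 lower among all tested genes. Higher calls then outnumbered lower ones in the list too, though by a smaller ratio than among all genes. Without dBET1 replicate 2 the number of higher genes was 11. Abundance differed between the list and the rest, with 35 of the 95 in the highest 2 deciles of abundance, in which 54.1% and 62.1% of all tested genes were lower.

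Of 21 tested transcription factors of the lineage, 14 fell (66.7%, against 27.6% of all tested genes) and 1, CBFB, rose (4.76%, against 28.0%), while FLI1 was at 0 counts. GATA1 had 6759 and 6619 counts under DMSO against 4617 and 4880 under dBET1, a log2 fold change of -0.50 (edgeR adjusted p = 0.00185). NFE2, which directs the last steps of platelet formation, fell from 237 ± 9.34 to 123 ± 2.89 CPM (SD, n = 2 each), a log2 fold change of -0.94. LMO2, the adaptor that holds GATA1 and TAL1 in a complex, showed the largest fall of this group, from 47.8 ± 1.22 to 9.36 ± 1.75 CPM (log2 fold change -2.35, edgeR adjusted p = 1.78e-05). LDB1, its partner, fell by 1.08 on the log2 scale. TAL1, at a log2 fold change of 0.18 (edgeR adjusted p = 0.0876), and RUNX1, at -0.011 (edgeR adjusted p = 0.939), did not pass the test. TAL1 passed it with total counts only, with at least 10 counts in every sample and with counts divided by 2, which are 3 of the 11 alternatives. With total counts as the only scaling 9 factors were lower and 4 were higher, and without dBET1 replicate 1 or 2 none was higher at an adjusted p under 0.05. Of the 21, 12 lay in the highest 2 deciles of abundance, where 54.1% and 62.1% of all tested genes were lower. The 66.7% covers all 21, so it cannot be set directly against those shares. Outside those 2 deciles LMO2, ETS2, MECOM, ETV6 and IKZF5 fell, while GABPA, ZFPM1, MRTFA and MEIS1 were not called. Of these genes LMO2, ETS2, MECOM and GABPA lay in decile 7, where 34.2% of all tested genes were lower. Whether the factors fell more than other genes of their abundance was not tested.

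Receptors and adhesion genes moved in both directions, and 8 of the 27 had 0 counts in both DMSO libraries. Of 18 tested, 7 rose (38.9%, against 28.0% of all tested genes) and 4 fell (22.2%, against 27.6%), and 6 of the 18 entered the test through the dBET1 libraries alone. F2RL3, the thrombin receptor PAR4, fell from 40.3 ± 2.50 to 6.38 ± 0.310 CPM (SD, n = 2 each), a log2 fold change of -2.66 (edgeR adjusted p = 9.43e-06). CD36, the thrombospondin receptor, fell by 1.46 on the log2 scale. CD226, an adhesion receptor, had 10 and 16 counts under DMSO against 24 and 47 under dBET1, with an adjusted p of 0.0460 that became 0.194 with DESeq2 and 0.373 without dBET1 replicate 2. CD226 entered the test through the dBET1 libraries alone. GP6, the collagen receptor, had 5 and 2 counts under DMSO against 5 and 2 under dBET1. Without dBET1 replicate 2, 4 of these genes were higher.

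Of 9 other tetraspanin genes 7 were tested, and the other 2, TSPAN33 and TSPAN15, had at most 3 counts in every library. CD63, CD151 and CD81 fell (42.9% of those tested, against 27.6% of all tested genes) and 0 rose with edgeR as reported, also at an unadjusted p under 0.05, and 0 rose with DESeq2. With total counts as the only scaling 1 was higher and 3 were lower. Of the 7 tested, 4 lay in the highest 2 deciles of abundance, where 54.1% and 62.1% of all tested genes were lower. CD63, CD151 and CD81 were among these 4. CD63, a marker of lysosomes and dense granules, fell from 307 ± 35.3 to 212 ± 7.75 CPM (SD, n = 2 each), a log2 fold change of -0.54 (edgeR adjusted p = 0.00187). CD151 and CD81 had log2 fold changes of -0.53 and -0.44. CD9 itself was at 2 counts or fewer in each library, against 3083 or more for CD81.

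Of 17 tested granule genes, 6 rose (35.3%, against 28.0% of all tested genes) and 4 fell (23.5%, against 27.6%), shares near those of all genes. VWF, the ligand of the GP1BA receptor and an alpha granule protein, had 0 counts in all 4 libraries, as PF4 and PPBP did. CLU, a chaperone stored in alpha granules, rose from 1.72 ± 0.228 to 9.78 ± 0.818 CPM (SD, n = 2 each), a log2 fold change of 2.51 (edgeR adjusted p = 7.82e-05). PDGFA, a growth factor, rose from 2.60 ± 0.00511 to 10.1 ± 0.580 CPM, a log2 fold change of 1.95. RAB27B, a GTPase of dense granule transport, fell from 115 and 74 counts to 18 and 16 counts (log2 fold change -2.45). Without dBET1 replicate 1 and with total counts as the only scaling, 2 granule genes were lower. CLU and PDGFA are also expressed by many other cell types.

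Of 14 tested genes of the cytoskeleton and of platelet release, 7 were lower (50%, against 27.6% of all tested genes) and 3 higher (21.4%, against 28.0%). TUBB1, the beta tubulin particular to platelets, had 81 and 59 counts under DMSO against 14 and 18 under dBET1, a log2 fold change of -2.11 (SE 0.347, edgeR adjusted p = 0.00151). FERMT3, or kindlin-3, which switches on the ITGA2B and ITGB3 receptor, fell from 292 ± 21.4 to 76.5 ± 2.18 CPM (SD, n = 2 each), a log2 fold change of -1.93. PFN1, the actin-binding profilin, fell by 1.49 on the log2 scale. Of the 14, 9 lay in the highest 2 deciles of abundance, where 54.1% and 62.1% of all tested genes were lower. Signalling genes had 3 higher (16.7%) and 6 lower (33.3%) of 18 tested, against 28.0% and 27.6% of all tested genes. ALOX12, the platelet lipoxygenase, had a log2 fold change of 1.45, RASGRP2, an activator of RAP1, of -0.95, and LCP2, the adaptor SLP-76, of -0.83, each with an adjusted p under 0.05. The signalling counts depended on the scaling and on a single library, with 5 higher and 3 lower with total counts only and 1 higher without dBET1 replicate 2.

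**Figure D4:**
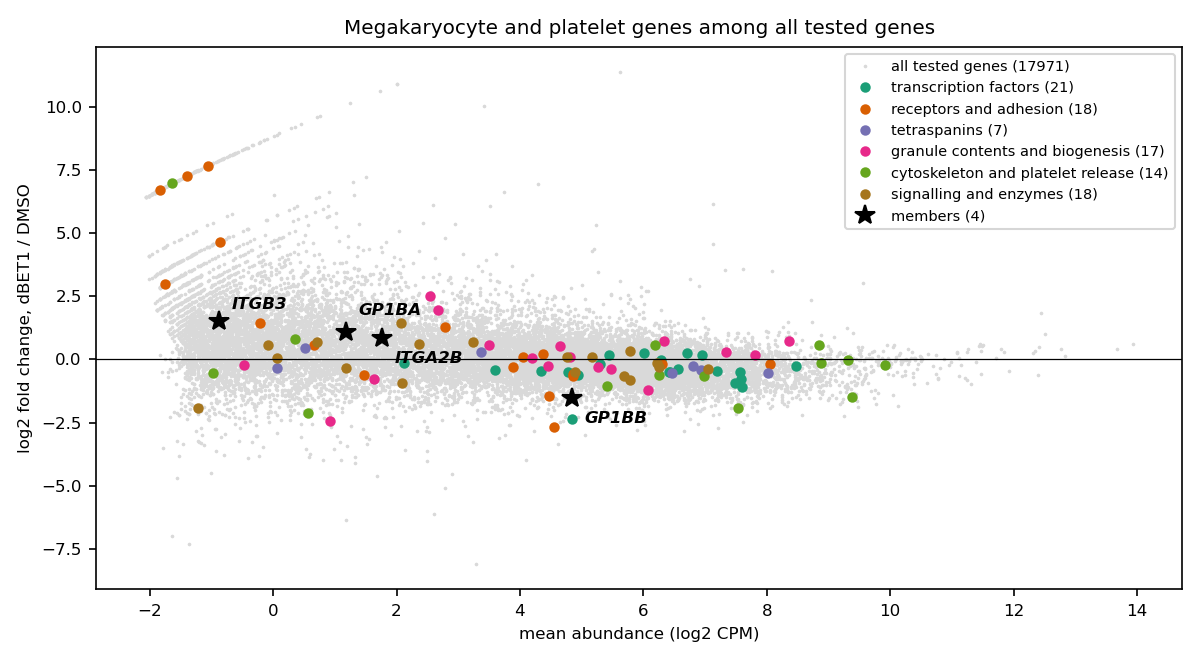
Log2 fold change of dBET1 over DMSO (y axis) against mean abundance in log2 CPM (x axis) for all 17971 tested genes (grey), 95 tested lineage genes coloured by role and the 4 tested genes of the 9 (stars). ITGB3, GP1BA and ITGA2B lie above 0 at low abundance, where the grey cloud is also shifted upward, and GP1BB lies below 0.

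The change of all tested genes varied with abundance. In abundance decile 1, the lowest, which holds ITGB3, 37.5% of genes were higher and 3.01% lower, and the median log2 fold change of its genes was 1.19. It was 0.57 in decile 3, which holds GP1BA, 0.30 in decile 4, which holds ITGA2B, and -0.093 in decile 7, which holds GP1BB. The log2 fold changes of 1.51, 1.10, 0.86 and -1.52 each lay farther from 0 than the median of their decile, by an amount for which no test was made. For ITGB3 this amount was smaller than the SE of 0.575. ITGA2B, GP1BA and GP1BB had been called, and a called gene is likely to lie beyond the median of its decile. The position therefore does not show that these genes exceed the trend with abundance.

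**Figure D5:**
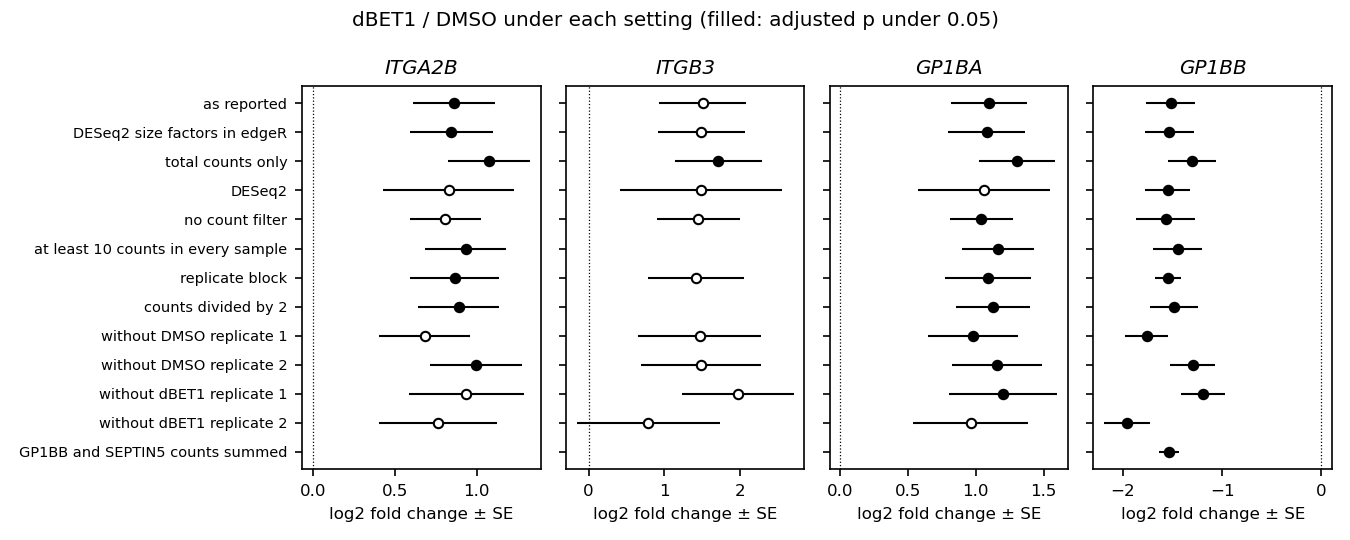
Log2 fold change with its standard error (x axis) for the 4 tested genes under each way of processing the counts (rows), with filled points where the adjusted p was under 0.05 and no point where the gene was not tested. Every point of GP1BB is filled and lies below 0. ITGA2B, ITGB3 and GP1BA lie above 0 in each row where they have a point, and lose or miss the threshold in several. The row of summed counts, present for GP1BB alone, holds mostly SEPTIN5 counts.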

How the data were processed

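The authors extracted total RNA, had libraries sequenced as paired-end reads and filtered by the sequencing company, aligned the reads to hg38 with HISAT2 2.2.0 and estimated abundances with StringTie. They deposited whole-number counts per Ensembl gene, unnormalized. The step from abundances to counts and its strand setting are not given in the sources used here. In case reads were counted 2 times, counts divided by 2 and rounded up were an alternative. The 4 columns were mapped to samples by group, time and replicate number, with NC read as the DMSO control. The table had 0 columns of other samples and 0 rows that name no gene, and 56105 of 64252 identifiers were in GENCODE release 44, the source of symbols, exons and coordinates.

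In R 4.3.3, edgeR 4.0.16 took the 4 libraries through filterByExpr, TMM scaling and its quasi-likelihood test of the group, with Benjamini-Hochberg adjustment. DESeq2 1.42.0, the tool of the study's methods, was an alternative. Others were edgeR with DESeq2 size factors, scaling by total counts only, testing without a count filter, a minimum of 10 counts in all samples, a replicate block, and leaving out each library. The standard error is the log2 fold change divided by the square root of F. RPKM is CPM per kilobase of merged exons. Abundance deciles rank the 17971 tested genes by mean log2 CPM. Intervals and floors cover counting error only. Replicates differed by more than counting error (chi-square per degree of freedom 23.6 for DMSO and 8.14 for dBET1). In 3 simulated data sets with about 17755 tested genes, 24.0% of genes changed 1.5-fold, 88.0% of those changed 2-fold and 100% of those changed 4-fold were called. The changed genes were drawn above a minimum expected count that ITGB3 does not reach, with the same dispersion for all genes. Far fewer genes were changed than were called in the real data, so these shares do not carry over to genes at a few counts.

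The 9 genes, the lineage list and the marker lists (neutrophil granule, erythroid, monocyte and macrophage, endothelial, T and B cell) were chosen with earlier results of these data known. All 9 genes are named. Of the lineage list, up to 3 genes per role with an adjusted p under 0.05, at least 1 CPM in a group mean and the largest change are named, with GATA1, RUNX1, NFE2, TAL1, GP5, GP6, VWF, TUBB1, PF4V1 and SEPTIN5, and other genes are named where a count turns on them. A further gene named by this rule is not reported here.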

Additional observations from a re-analysis of the deposited data

How the results depend on the processing

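GP1BB was lower with an adjusted p under 0.05 in every alternative with all libraries, where its log2 fold change was -1.57 to -1.30. With 1 library left out the log2 fold change was -1.96 to -1.19. The sum of GP1BB and SEPTIN5 counts is not included here, since SEPTIN5 supplied most of its counts. The direction of ITGA2B, ITGB3 and GP1BA was kept in every alternative that tested them, and ITGB3 was not tested with at least 10 counts in every sample or with counts divided by 2. ITGA2B missed the threshold with DESeq2 (log2 fold change 0.83) and with no count filter (0.81, adjusted p = 0.0591), and ran from 0.68 to 1.00 with 1 library left out. GP1BA missed it with DESeq2 (1.06) and ran from 0.96 to 1.20. ITGB3 passed it with total counts only (1.71) and ran from 0.79 to 1.97. Thus 0 of the 9 genes were higher with DESeq2, where 2 had an unadjusted p under 0.05, 1 with no count filter, and 0 to 2 with 1 library left out, the 0 being without dBET1 replicate 2, where 1 had an unadjusted p under 0.05. The cause of each lost call was not tested.

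In the lineage list, 31 genes were higher and 26 lower with total counts only (20 and 38 as reported), and the higher ones numbered 13 with no count filter and 11 to 22 with 1 library left out. Its median was 0.0063 with total counts only, -0.11 with DESeq2, -0.13 with no count filter and -0.28 to -0.14 with 1 library left out, and setting the 4 genes at 0 in DMSO to their bound left it at -0.20. RUNX1, not called, changed sign in 4 of 11 alternatives. Over all genes, 3356 to 5118 were higher with 1 library left out, the lowest without dBET1 replicate 2, and past the fold limit 1940 were higher with at least 10 counts in every sample (3032 as reported, 2309 to 2953 with 1 library left out) and 952 were lower with total counts only (1535 as reported). Higher genes made up 50.4% of calls as reported and 65.2% with total counts only.

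Libraries of both groups carry replicate numbers 1 and 2. Deviations of same-numbered libraries from their group means correlated at -0.00052, so no shared effect of the number was seen across genes. Whether same-numbered libraries were handled together cannot be told from this or from the labels. The replicate block lowered the SE of GP1BB from 0.248 to 0.134 and raised those of ITGA2B, ITGB3 and GP1BA. With the replicate block the log2 fold changes were 0.86 for ITGA2B, 1.42 for ITGB3, 1.09 for GP1BA and -1.54 for GP1BB, and no call on these genes changed.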
